A study of Bos taurus with 8 samples.

Results

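The comparison was made on 6 of the 8 arrays of the series, those of 1, 2 and 4 mo after the feeding groups were separated, with 3 arrays labelled grazing set against 3 labelled housed and paired by month. The arrays were chosen by their labelled time alone, and both 0 mo arrays were kept out of the test. Each array held plasma exosomal RNA mixed from 3 Japanese Shorthorn steers of 1 feeding group, hybridized to a 1-colour custom Agilent design that carries probes for 744 bovine miRNAs. The question was which circulating miRNAs differed between steers on pasture and steers in a barn while the feeding lasted.

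The housed steers were kept in a free-stall barn and given cut grass, the grazing steers took their grass from the pasture, and neither group received grain. The steers were split at random into 2 groups, and their ages are not in the sample labels. The same 3 animals of a group were sampled at each month, so the 3 arrays of a label are 3 samplings of 1 set of steers, and the p-values describe these pools and not cattle at large. A single slide carried all arrays. Column 1 of it held the pools labelled housed and column 2 those labelled grazing, so slide position and feeding group cannot be told apart.

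The group labels have an opposite reading. For every later array labelled housed, all detected miRNAs (185, 166 and 182) matched a column headed G in S1 Table within 1%, and for every later array labelled grazing (149, 163 and 160 miRNAs) a column headed A, the H of its legend. No other column held more than 12 such matches. Directions are given by the deposited labels. Read by the columns, each is the opposite one, and a miRNA that was lower on the arrays labelled grazing was higher in the grazing steers.

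MicroRNAs are short RNAs that lead a silencing complex to mRNAs, mainly through the seed near the 5′ end, and lower the output of those mRNAs. Exosomes are small vesicles that cells release, and the miRNAs they carry in plasma come from blood cells, the vessel wall and other tissues. In plasma vesicles, fewer vesicles from 1 cell type and less of a miRNA in each vesicle cannot be told apart.

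The array reads each miRNA through short DNA probes that are complementary to it. The probes of 10 of the miRNAs that differed are printed 5′ to 3′, with G and C in capitals, because the direction of a difference went with the base content of its probe. Each is the longest probe of its miRNA, and the position is the one the array design gives on UMD_3.1, with the strand of the miRNA. In the design, some intervals are 1 base shorter than their probe.
miR-144, chr19:20797072-20797092, plus strand: CtaGtaCatCatCtataCtGta
miR-451, chr19:20796880-20796897, plus strand: aaaCtCaGtaatGGtaaCG
let-7e, chr18:58015046-58015063, minus strand: aCtataCaaCCtCCtaCCt
miR-98, chrX:96382651-96382670, plus strand: aaCaataCaaCttaCtaCCtC
miR-150, chr18:56407871-56407885, plus strand: aCaCtGGtaCaaGGGt
miR-423-5p, chr19:21799507-21799522, minus strand: aaaGtCtCGCtCtCtGC
miR-574, chr18:63074675-63074689, plus strand: CaCaCaCtCaCaCaCa
miR-2382-3p, chr25:2252148-2252159, plus strand: GtGGGGCGaGGC
miR-940, chr25:1792935-1792944, minus strand: GCGGaGCGGGG
miR-1281, chr5:112802193-112802205, minus strand: GGGaGaGGaGGaGG

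In the ARS-UCD2.0 annotation, used for gene order only, MIR144 and MIR451 are neighbours, MIR98 lies in HUWE1 near MIRLET7F-2, and let-7e has MIR99B and MIR125A beside it. MIR126 lies in EGFL7, MIR423 in NSRP1, MIR1224 in VWA5B2 and MIR2382 in PGP.

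Detection differed between the labels. The scanner software flagged 199 miRNAs as detected on at least 1 of the 6 arrays, and 144 on all 6. The arrays labelled housed had 185, 166 and 182 by month, and those labelled grazing 149, 163 and 160. Added over its detected miRNAs, the signal was 84288, 62438 and 90951 on the former and 45507, 63558 and 51625 on the latter, so the array labelled housed was the brighter at 1 and 4 mo and about as bright at 2 mo. To compare arrays, signals were expressed relative to the 90th percentile of their own array, and this quotient is called the level. The percentile of the array labelled housed was 2.67 times that of the array labelled grazing at 1 mo, 0.903 times at 2 mo and 2.41 times at 4 mo. The scanner's own error of a signal was, as a median, 8.81% to 9.84% on these arrays, and 0 spots were saturated.

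Of the 144 miRNAs tested, 15 differed between the labels (10.4%, limma with month as a block and Benjamini-Hochberg adjusted p under 0.05). On the arrays labelled grazing, 7 were lower (4.86%) and 8 were higher (5.56%). The red-cell miRNAs miR-144 and miR-451, the let-7 members let-7e and miR-98, miR-126-5p, miR-16a and miR-193a-3p formed the first set. The lymphocyte miRNA miR-150, miR-423-5p, miR-1224 and 5 dim miRNAs formed the second. The log2 difference was 0.00 as a median over all 144, with 72 above 0 and 72 below, and its median size was 0.31.

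The split between the directions moved with the scaling. With the 75th percentile 3 were higher and 5 lower, with the 90th percentile of the miRNAs detected on all 6 arrays 7 and 22, with let-7g as the reference 40 and 3, with the summed signal 0 and 5, and without scaling 0 and 3. These choices moved the median log2 difference of all miRNAs by -0.19, -0.11, 0.33, -0.28 and -0.84, in that order, and each change is to be read against that shift. Under each of these 5 scalings miR-144, miR-451 and miR-193a-3p passed the test and were lower on the arrays labelled grazing. With quantile normalization these miRNAs were lower too but did not pass (adjusted p = 0.056 for each in limma).

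**Figure D1:**
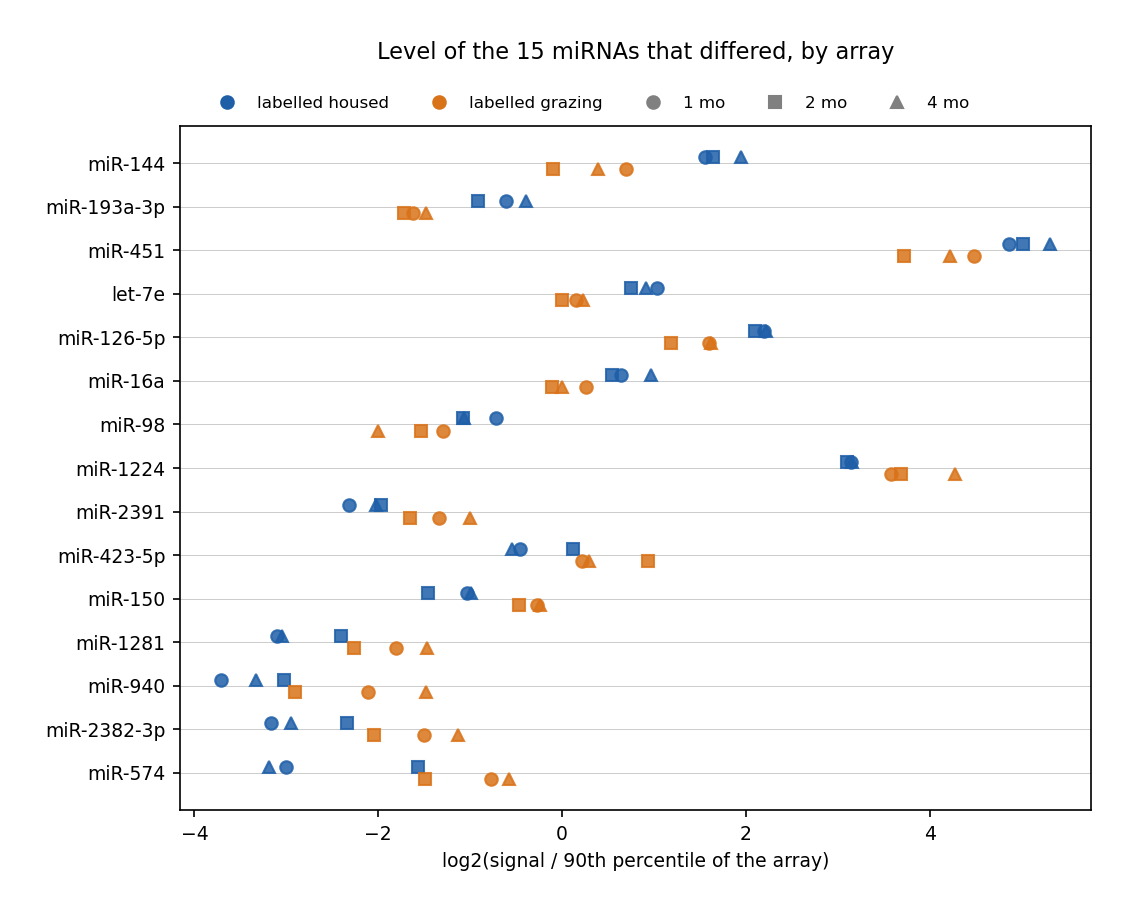
Level (signal over the 90th percentile of the array, log2) of the 15 miRNAs that differed, with 1 point per array, colour for the label and shape for the month. For every one of the 15, the 3 points of one label lie apart from the 3 of the other, while miR-574 and miR-940 nearly touch at 2 mo.

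The labels did not overlap, that is, all 3 levels of one label lay above all 3 of the other, for 62 of the 144 miRNAs (43.1%), of which 28 were higher (19.4%) and 34 lower (23.6%) on the arrays labelled grazing. The monthly difference had 1 sign at 1, 2 and 4 mo for 82 (56.9%), 36 higher (25%) and 46 lower (31.9%). All 15 miRNAs called belong to both sets. An exact sign-flip test of 3 monthly pairs cannot give a p below 0.25, and an exact permutation test of 3 against 3 not below 0.1, so calls rest on the spread that limma pools over miRNAs.

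The largest difference toward a lower level was that of miR-144, which is processed from the same cluster as miR-451, is abundant in red cells and is switched on by GATA1 as these cells mature. At 1, 2 and 4 mo its level was 2.94, 3.13 and 3.86 on the arrays labelled housed, against 1.62, 0.934 and 1.32 on those labelled grazing. The lowest housed level was well above the highest grazing one. The log2 difference, grazing minus housed, was -1.38 (SE 0.22, adjusted p = 0.0014), a 2.61-fold lower level, and by month it was -0.86, -1.74 and -1.55. Before scaling, its signal ran from 159 to 318 on the arrays labelled housed and from 45.0 to 52.5 on those labelled grazing.

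miR-451 is made without Dicer, by the slicing activity of Argonaute 2, and is among the most abundant miRNAs of red cells. It had levels of 29.0, 32.2 and 39.6 on the arrays labelled housed against 22.3, 13.2 and 18.6 on those labelled grazing. The labels were closest at 1 mo and farthest apart at 2 mo. The log2 difference was -0.92 (SE 0.22, adjusted p = 0.014), or 1.89-fold, with monthly values of -0.38, -1.29 and -1.09.

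The other red-cell miRNAs of the list did not pass the test. miR-185 differed by -0.62 on the log2 scale (adjusted p = 0.060), and its labels did not overlap. miR-486, which red cells and muscle both express, differed by -0.33 (adjusted p = 0.33), with monthly values of 0.16, -1.03 and -0.12. Without 2 mo its difference was 0.022, so the sign rests on that month. Of the 4 red-cell miRNAs 0 passed the test upward and 2 downward, with a median log2 difference of -0.77 against 0.00 over all miRNAs tested. The summed level of the 4 was 36.2 to 49.1 on the arrays labelled housed and 16.9 to 28.3 on those labelled grazing. Most of each sum was miR-451, so it says little of the other members. The median stayed below 0 in all scalings, from -0.44 with let-7g as the reference to -1.61 without scaling. At 0 mo, miR-144 already differed by -0.29 and miR-451 by -0.15 in the same direction, against a median of -0.22 over 143 miRNAs.

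**Figure D2:**
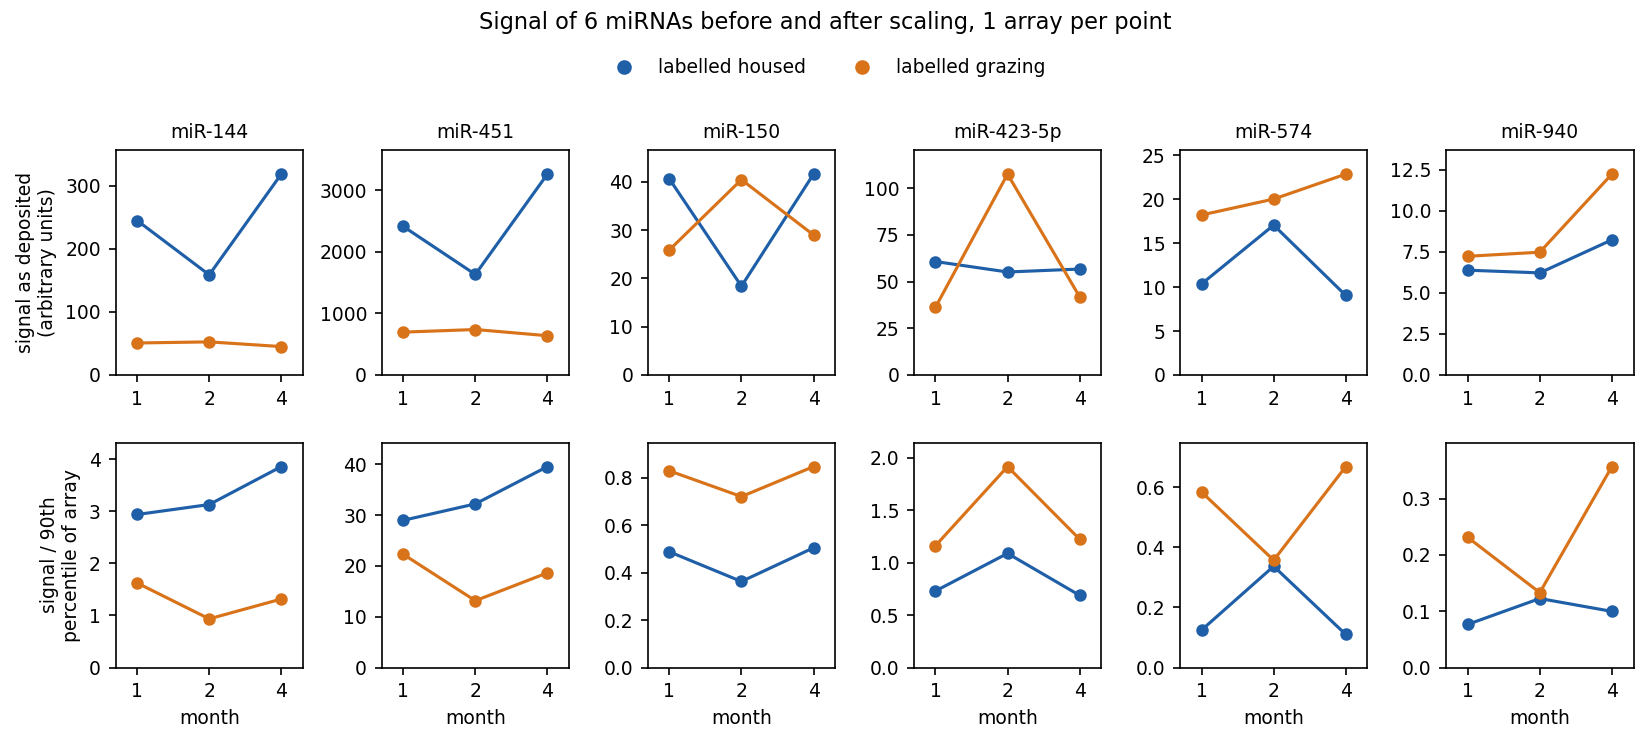
Deposited signal (top, arbitrary units) and level (bottom, signal over the 90th percentile of the array) of 6 miRNAs that differed, by month, with 1 array per point and colour for the label. miR-144 and miR-451 are lower on the arrays labelled grazing in both rows, miR-150 and miR-423-5p change order between months before scaling and not after it, and miR-574 and miR-940 stay within 6.21 and 22.9 before scaling and nearly meet at 2 mo after it.

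The let-7 family shares 1 seed and is best known for repressing RAS, MYC and LIN28 transcripts and for marking differentiated cells. Of its 9 members, all tested, 0 passed the test upward and 2 downward, the median log2 difference was -0.35, and all 9 were below 0. At 0 mo the median of the family was -0.22, as it was over 143 miRNAs. The level of let-7e was 2.05, 1.68 and 1.88 on the arrays labelled housed and 1.11, 1.00 and 1.17 on those labelled grazing. The 3 months gave similar differences for let-7e, of -0.88, -0.75 and -0.68, with a mean of -0.77 (SE 0.20, adjusted p = 0.018).

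The second member called, miR-98, is a let-7 relative with the same seed. Its level was 0.607, 0.472 and 0.479 on the arrays labelled housed and 0.406, 0.345 and 0.250 on those labelled grazing, where it was lowest at 4 mo. The difference was -0.66 (SE 0.20, adjusted p = 0.048). let-7a-5p (-0.59, adjusted p = 0.059) and let-7f (-0.57, adjusted p = 0.060) came next, and let-7g, which the study used as its reference for qRT-PCR, differed by -0.33 (adjusted p = 0.26). When let-7g was the reference, 5 of the other 8 members stayed below 0 and 3 moved above it. The members differ by a few bases, so a probe of one may bind another, and the 9 values are not independent.

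miR-16a belongs to the miR-15/16 family, which represses BCL2 and cyclins. It had levels of 1.56, 1.45 and 1.95 on the arrays labelled housed against 1.20, 0.930 and 0.996 on those labelled grazing, and the log2 difference was -0.67 (SE 0.20, adjusted p = 0.048). The monthly values were -0.38, -0.64 and -0.97, and at 0 mo it was -0.76. All 6 members of the family were tested, 0 passed the test upward and 1 downward, all 6 were below 0 at each of the 3 months, and the median was -0.43. miR-195 (-0.55, adjusted p = 0.062) and miR-16b (-0.54, adjusted p = 0.065) were next. With let-7g as the reference 2 of the 6 moved above 0. At 0 mo the median of the family was already -0.59, against -0.22 over 143 miRNAs.

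miR-126-5p comes from an intron of EGFL7, a gene of endothelial cells, and both strands of its hairpin are abundant in endothelium and platelets. The levels were 4.57, 4.28 and 4.64 on the arrays labelled housed and 3.04, 2.27 and 3.08 on those labelled grazing. The log2 difference was -0.70 (SE 0.20, adjusted p = 0.035). The other strand, miR-126-3p, had a value of -0.58 and did not pass the test (adjusted p = 0.060), with monthly values of -0.51, -0.74 and -0.49. Of the 6 endothelial and platelet miRNAs tested out of 7 listed, 0 passed upward and 1 downward, and miR-221 was above 0 (0.42, adjusted p = 0.22), which left the median at -0.17. That median was -0.01 without 4 mo and -0.27 without 2 mo, and miR-221 was 0.74 and 0.09 in those cases, so both depend on single months. The summed level of the list was 59.2 to 69.2 on the arrays labelled housed and 37.4 to 49.2 on those labelled grazing. Such a sum follows its brightest members and not the list as a whole. The list's median turned to 0.16 with let-7g as the reference. At 0 mo that median was already -0.42, against -0.22 over 143 miRNAs.

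The difference of miR-193a-3p was the second largest toward a lower level. Its levels were 0.654, 0.528 and 0.763 on the arrays labelled housed and 0.324, 0.304 and 0.359 on those labelled grazing, a difference of -0.97 (SE 0.20, adjusted p = 0.0071). The months were close to each other at -1.01, -0.80 and -1.09, and at 0 mo it differed by -0.84, so the size after the start was near that at the start.

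A further group of families lay below 0 with no member called. At 0 mo the medians of the miR-10, miR-23/27/24 and miR-17-92 lists below were already -0.44, -0.43 and -0.33, against -0.22 over 143 miRNAs. The family of miR-10, miR-99, miR-100 and miR-125 had 5 of 7 members tested, 0 passed in either direction, and all 5 were below 0 at each month with a median of -0.54. The values of miR-10b, miR-10a and miR-100 were -0.55, -0.54 and -0.54, with adjusted p of 0.060, 0.064 and 0.065. With let-7g as the reference 1 of the 5 moved above 0. The 7 members of the miR-23/27/24 clusters and miR-26 were also all below 0 (median -0.24, 0 called), but that median became 0.08 with let-7g as the reference and was -0.15 without 4 mo. The 10 tested members of the miR-17-92 and paralogous clusters had a median of -0.09, with 3 above 0, 7 below and 0 called. This median had no settled sign, since it was 0.24 with let-7g as the reference, 0.04 without 4 mo and -0.20 without 1 mo. No member was called in the miR-29 family, the miR-30 family, the pair of miR-103 and miR-107, or the list of miR-130, miR-301, miR-148 and miR-152 either. Their medians of 0.16, -0.05, -0.22 and 0.09, in that order, each changed sign under at least 1 scaling.

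**Figure D3:**
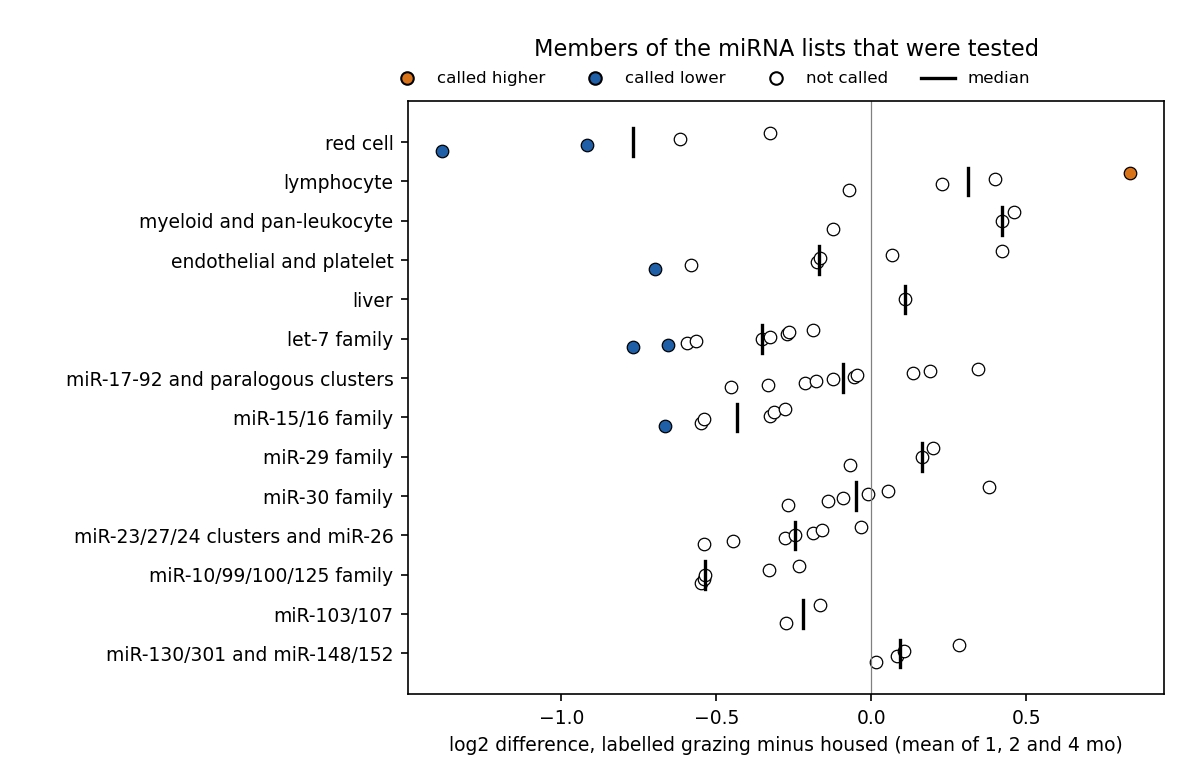
Log2 difference (labelled grazing minus labelled housed, mean of 1, 2 and 4 mo) of each tested member of the miRNA lists, with filled points for members that passed the test and a bar at the median of each list. The red-cell, let-7 and miR-15/16 members all lie below 0, from -1.38 to -0.19, and the 1 member called higher is miR-150 of the lymphocyte list.

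Of the miRNAs higher on the arrays labelled grazing, miR-150 is known as a lymphocyte miRNA. It is abundant in mature B and T cells, where it represses MYB. Its level was 0.488, 0.363 and 0.505 on the arrays labelled housed and 0.829, 0.721 and 0.847 on those labelled grazing. The separation was alike at the 3 months, with log2 differences of 0.77, 0.99 and 0.75 and a mean of 0.83 (SE 0.20, adjusted p = 0.014), or 1.78-fold. At 0 mo miR-150 differed the other way, by -0.26, which was near the median of -0.22 over 143 miRNAs at that time. Of these, 100 lay below 0 and 43 above. Among the 15 miRNAs called miR-150 was the one exception, and 14 had the later direction at 0 mo too. The sign at 0 mo was kept at 1, 2 and 4 mo, each taken alone, by 94, 91 and 114 of the 143. Before scaling the signals of miR-150 were 40.6, 18.4 and 41.6 against 25.9, 40.5 and 29.0. The order of the labels at 1 and 4 mo thus depends on the scaling, and the mean difference without scaling was -0.01.

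The other lymphocyte miRNAs did not pass the test. miR-342 differed by 0.40 (adjusted p = 0.19) and miR-155 by -0.07 (adjusted p = 0.82). Of 7 listed, 4 were tested, 1 passed upward and 0 downward, the median was 0.31, and miR-146a and miR-146b were detected on 0 arrays. The summed level of the list was 1.89 to 2.13 on the arrays labelled housed and 2.39 to 2.89 on those labelled grazing.

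The myeloid and pan-leukocyte list had 3 of 4 members tested, 0 called and a median of 0.42. miR-142-5p, found in all leukocytes, differed by 0.46 (adjusted p = 0.11), and its labels did not overlap. miR-223, abundant in neutrophils and platelets, differed by 0.42 (adjusted p = 0.19), with 0.43, 0.91 and -0.07 at 1, 2 and 4 mo. The third member tested, miR-21-5p, was at -0.12 (adjusted p = 0.70), with a sign that turned in some settings, and miR-142-3p, the other arm of the miR-142 hairpin, was detected on 0 arrays. The median of the list was 0.18 without 2 mo, and that of the lymphocyte list 0.20 without 1 mo. Both leukocyte lists had medians above 0 in each scaling but the unscaled signal, where these were -0.53 and -0.42. At 0 mo the median was -0.20 for the lymphocyte list and -0.64 for the myeloid and pan-leukocyte list, against -0.22 over 143 miRNAs.

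miR-423-5p, encoded within NSRP1 and often seen in circulation, had levels of 0.729, 1.09 and 0.687 on the arrays labelled housed and 1.16, 1.91 and 1.22 on those labelled grazing. Both labels peaked at 2 mo, and the difference stayed at 0.67, 0.82 and 0.83, with a mean of 0.77 (SE 0.20, adjusted p = 0.018). Its spread over the months, an SD of 0.09, compares with a median of 0.29 over all miRNAs tested.

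miR-1224 is a mirtron, a miRNA spliced out as a whole short intron, and lies in VWA5B2. Its levels were 8.85, 8.55 and 8.89 on the arrays labelled housed, nearly constant, and 11.9, 12.9 and 19.4 on those labelled grazing. The difference was 0.72 (SE 0.21, adjusted p = 0.039), and the value of 4 mo, 1.13, was the highest of the 3.

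The remaining 5 miRNAs called higher, miR-574, miR-2382-3p, miR-940, miR-1281 and miR-2391, were dim. Their unscaled signals lay between 6.21 and 22.9 on all 6 arrays, against 18.4 to 736 for miR-150, miR-423-5p and miR-1224. The monthly log2 differences of the 5 were 0.98 to 2.23 at 1 mo and 1.02 to 2.60 at 4 mo, but 0.08 to 0.31 at 2 mo, the month in which the 90th percentiles of both arrays were close. Their unscaled log2 differences had medians of 0.18, 0.28 and 0.56 at 1, 2 and 4 mo, while those of the 41 miRNAs with a mean signal under 30 had medians of -1.34, 0.27 and -1.22. The part of the scaling in these 5 differences was not tested.

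For miR-574 the deposited signals were 10.4, 17.1 and 9.05 on the arrays labelled housed and 18.2, 20.0 and 22.9 on those labelled grazing. As levels these became 0.125, 0.337 and 0.110 against 0.583, 0.357 and 0.668. Its log2 difference, the largest of all 144 miRNAs in size, was 1.64 (SE 0.34, adjusted p = 0.0071), the monthly values were 2.23, 0.08 and 2.60, and at 0 mo it was 3.09.

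miR-2382-3p had deposited signals from 9.25 to 10.6 on the arrays labelled housed and of 11.1, 13.6 and 15.7 on those labelled grazing, and its log2 difference was 1.26 (SE 0.26, adjusted p = 0.0071). miR-940 had signals of 6.38, 6.21 and 8.22 against 7.22, 7.47 and 12.2, and a difference of 1.18 (SE 0.27, adjusted p = 0.014). At 2 mo their log2 differences were 0.28 and 0.12, the smallest of the 3 months for both. miR-1281 (1.00, SE 0.25, adjusted p = 0.018) and miR-2391 (0.77, SE 0.21, adjusted p = 0.029) had the same form, with 0.13 and 0.31 at 2 mo.

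The direction of a difference went with the base content of the probe. Among the 144 miRNAs tested, 52 had a probe with 60% or more G and C, and 42 of these were higher on the arrays labelled grazing, with a median log2 difference of 0.28. Of the other 92, 30 were higher, and the median was -0.15. The 7 miRNAs called lower had probes of 31.8% to 52.9% G and C, and the 8 called higher had 50% to 90.9%. Of the probes printed, miR-940 is nearly all G and C and miR-144 is mostly A and T.

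Across the 144 miRNAs, which share the same 6 arrays and are not independent, the share of G and C correlated with the mean difference with a Pearson's r of 0.47 and a Spearman's rho of 0.47. By month r was 0.32, 0.28 and 0.51, and on the 0 mo arrays, over 143 miRNAs, it was 0.46. The relation was thus there before the feeding groups were separated, and its part in the calls was not tested. miR-150 and miR-574 have probes with the same share of G and C, and miR-193a-3p and miR-423-5p, which were called in opposite directions, have the same share too. These pairs are picked examples and do not bear on the relation over all 144.

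**Figure D4:**
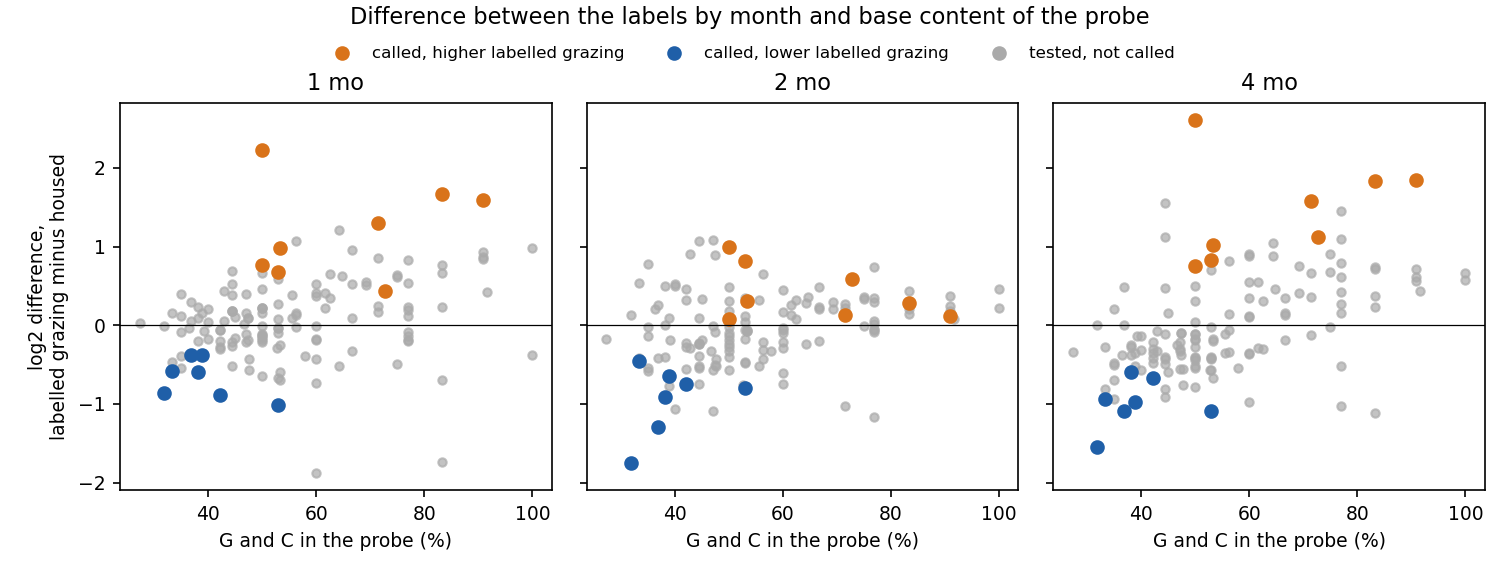
Log2 difference (labelled grazing minus labelled housed) of each of the 144 miRNAs tested against the share of G and C in its longest probe, in 1 panel per month. Over all points the correlation with the share of G and C had an r of 0.32, 0.28 and 0.51, and 5 of the miRNAs called higher fall to between 0.08 and 0.31 at 2 mo.

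The months did not give the same picture. Differences at 1 and 4 mo correlated with an r of 0.73 over the 144 miRNAs, those at 1 and 2 mo with 0.37, and those at 2 and 4 mo with 0.35, as a description, since the miRNAs share arrays. The differences at 0 mo correlated with those at 1 mo (r of 0.57) and 4 mo (0.54), and with those at 2 mo by 0.11. In brightness, 0, 1 and 4 mo were alike and 2 mo was not, since the percentile of the array labelled housed was 2.68, 2.67 and 2.41 times that of the other at 0, 1 and 4 mo. At 2 mo, the month with nearly equal arrays, the 7 miRNAs called lower differed by -1.74 to -0.45, and miR-150, miR-423-5p and miR-1224 by 0.59 to 0.99.

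A list of 20 miRNAs was taken from those that had been followed up by qRT-PCR. Of these, 19 were tested, with 1 called higher (miR-150) and 3 called lower (miR-144, miR-451 and miR-126-5p), and a median of 0.16. The median was 0.02 without 2 mo and 0.35 without 4 mo, and it turned to -0.03 with the 75th percentile, -0.12 with the summed signal and -0.68 without scaling. Most were picked for follow-up from these same arrays, so their array values are no independent evidence of a direction. The qRT-PCR of the study was a separate measurement, and its values are not reported here. miR-1249 (0.62, adjusted p = 0.055) and miR-2888 (0.56, adjusted p = 0.060) were close to the threshold. miR-30d (0.38), miR-320a (0.36) and miR-361 (0.32) were above 0 at all 3 months and did not pass.

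Of the 55 miRNAs detected on some later arrays only, 7 were detected on all 3 arrays labelled housed and on none labelled grazing, and 0 the other way. They were miR-122, the main miRNA of hepatocytes, miR-199c, miR-34a, miR-375, miR-424-5p, miR-489 and miR-99b, with signals on the arrays labelled housed between 5.41 and 29.6. For a miRNA that was not detected, the lowest detected signal of each array stood in, or the miRNA's own signal where that was higher. Averaged over the months on the log2 scale, the level was then 1.53-fold higher on the arrays labelled housed for miR-99b. This mean was 1.51-fold for miR-489, 1.39-fold for miR-424-5p and miR-199c, 1.16-fold for miR-375 and 1.14-fold for miR-122. For miR-34a it was 0.93-fold, so the level was not higher on the arrays labelled housed. The mean does not hold for each month. Among the miRNAs with a mean above 1-fold, the value that stood in was above the housed level at 1 and 4 mo for miR-375 and at 4 mo for miR-122. These folds carry no test and are no lower bounds, because the signals that stood in have errors of their own. For miR-99b these signals were 5.30, 4.79 and 5.32, with scanner errors of 2.00, 2.17 and 1.91. The 7 miRNAs were also picked by detection on the arrays labelled housed, so a fold toward that label is no further evidence. The arrays labelled grazing were the dimmer ones at 1 and 4 mo. In the liver list, miR-122 was thus the member with no detection on the arrays labelled grazing, miR-194 was detected on 3 arrays labelled housed and 1 labelled grazing, and miR-192, the 1 member tested, was at 0.11 (adjusted p = 0.75), with a sign that turned under most scalings.

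The skeletal-muscle list had 0 of 7 members tested. miR-133b was detected on 1 array, labelled housed 1 mo, with a signal of 6.51, and the other members (miR-208a, miR-208b, miR-1, miR-206, miR-499 and miR-133a) on 0 of the 6.

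**Figure D5:**
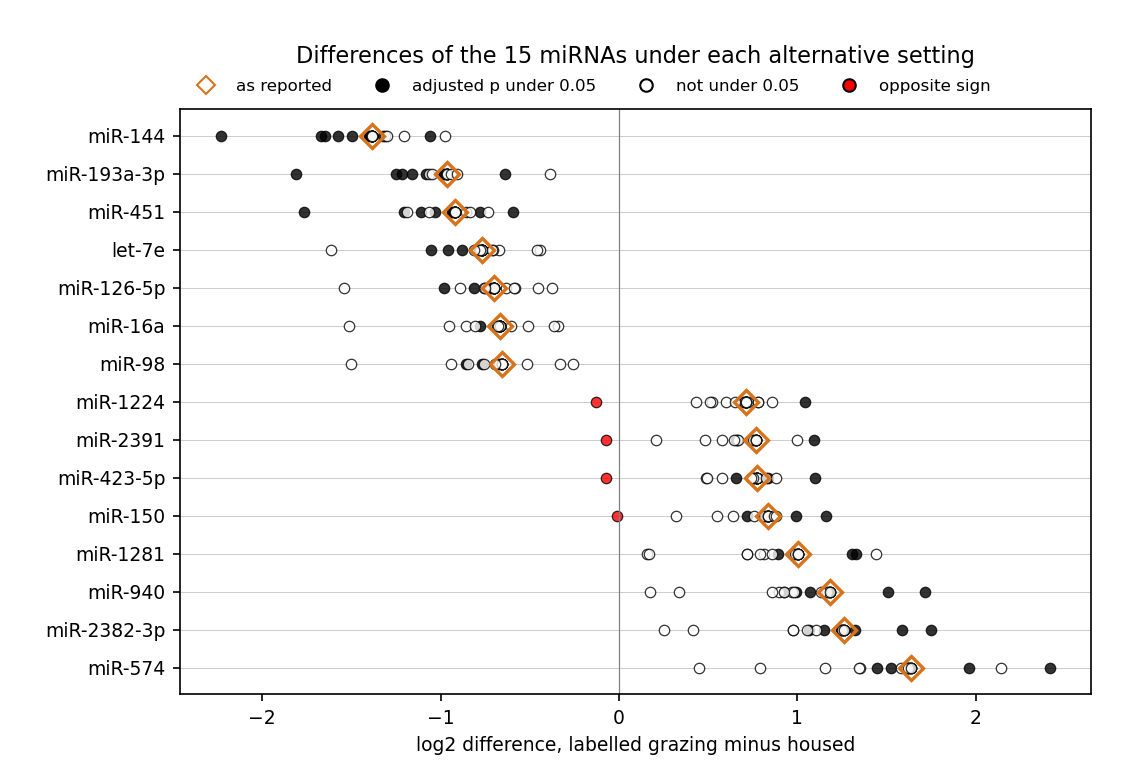
Log2 difference (labelled grazing minus labelled housed) of the 15 miRNAs as reported (diamond) and under each alternative setting (circles, filled where the adjusted p was under 0.05). All settings keep the sign of 11 of the 15, and miR-150, miR-423-5p, miR-2391 and miR-1224 cross 0 without scaling. Only the settings with another scaling or signal could have turned a sign.

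How far each call depended on 1 month was seen by leaving a month out. Without 1 mo 1 miRNA passed the test, miR-144. Without 2 mo 3 passed, the dim miR-574, miR-2382-3p and miR-940, and without 4 mo 0 passed with limma, although 12 had an unadjusted p under 0.05. All 15 kept their sign in each case, which had to be so, because each had 1 sign at 1, 2 and 4 mo. With quantile normalization, without the pooled spread, or with every miRNA detected on at least 3 of the 6 arrays tested, 0 passed the test in limma, and 44, 23 and 48 had an unadjusted p under 0.05. Across 21 alternative settings miR-144 passed the test in 15 and miR-451 in 14, and miR-193a-3p in 12 of the 19 that tested it. The least stable calls were miR-98, which passed in 6 of 19, miR-2391 in 7 of 18, miR-1224 and miR-16a in 8 of 21 each and miR-1281 in 8 of 19. The others passed in 9 to 11.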

How the data were processed

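Each array held 1 pool of plasma exosomal RNA of 3 steers. The authors quantified the scans in Feature Extraction software, version 10.7.3.1 per the submitters' processing notes, and the deposited intensity values are background-subtracted total signals per miRNA, not scaled between arrays. A second table deposited for the whole series gives each value as a ratio of signal to an array-wide factor, used as an alternative for the 142 of 144 miRNAs whose names matched. Unused sample columns numbered 0.

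Total signals were divided by the 90th percentile of their array over the 744 miRNAs and taken to log2, with no pseudocount. The 144 miRNAs flagged as detected on all 6 later arrays were tested with limma 3.58.1 in R 4.3.3, month as a block and Benjamini-Hochberg adjustment at 0.05, which left 2 residual degrees of freedom before the spread was pooled. The months of the labels pair the arrays. On simulated data for 144 miRNAs, 20 with a log2 change of 1.5 over noise with an SD of 0.2, 100% were recovered with 0 false calls. The planted change was larger than the difference of every miRNA called but miR-574, and the noise was alike for all miRNAs. The run thus checks the code and does not measure the power or the false calls on the real arrays. Other values came from scipy 1.17.1 and pandas 2.3.3 in Python 3.11.15 (numpy 2.4.6), and figures from matplotlib 3.10.9.

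The comparison, its lists and its tests were chosen with earlier results of these data known. The miRNAs named are those past the threshold, let-7g, members of the lists, the 3 that differed most in each direction without a change of sign, and those detected on every array of one label and none of the other. Alternatives were 7 other scalings, other signals, a floor, filters, forms of the test, and each month left out. A filter on signals above 30 was added after the data were seen. The precision is limited by the number of arrays and is otherwise the scanner's error estimate. No annotation of UMD_3.1 was used, and mature miRNA sequences were not used here.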

Additional observations from a re-analysis of the deposited data

How the results depend on the processing

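The number of miRNAs that passed the test depended on the processing, while the signs of the 15 did not, apart from 4 without scaling. Only the other scalings and signals could have turned a sign. The floor, the filters and the forms of the test cannot, nor can leaving out a month where all 3 months share a sign. Against 15 (8 higher and 7 lower with the label grazing), the count was 8 (3 and 5) with the 75th percentile, 29 (7 and 22) with the 90th percentile of the miRNAs detected on all 6 arrays, 43 (40 and 3) with let-7g, 5 (0 and 5) with the summed signal and 3 (0 and 3) without scaling. With quantile normalization it was 0 with limma, with 44 at an unadjusted p under 0.05. It was 9 (4 and 5) with the mean spot signal, 3 (0 and 3) with normexp, of which 1 was among the 15, and 8 (5 and 3) with the series table. A floor gave 17, and the median as reference and the filter on all 8 arrays gave the same 15. Testing the 171 miRNAs detected on at least 3 of the 6 arrays gave 0 (48 unadjusted). Leaving out dim miRNAs gave more calls from fewer tests, 32 of 96 (16 and 16) where most spots were well above background and 26 of 74 (13 and 13) where all signals were above 30. An intensity trend in the spread gave 35 (16 and 19), and a test without moderation 0 (23 unadjusted). Without the replicate block, that is, without pairing by month, 15 passed (8 and 7), of which 13 were the same. Leaving out 1 month gave 0 to 3 in all, 0 to 3 higher and 0 to 1 lower. The cause of these changes was not tested.

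Without scaling, which moved the median of all miRNAs by -0.84, the difference turned to -0.011 for miR-150, -0.073 for miR-423-5p, -0.075 for miR-2391, -0.130 for miR-1224, -0.447 for miR-342, -0.423 for miR-223 and miR-221, -0.384 for miR-142-5p, -0.484 for miR-320a, -0.530 for miR-361, -0.464 for miR-30d, -0.220 for miR-1249 and -0.285 for miR-2888. With let-7g as the reference miR-155 turned to 0.254 and miR-21-5p to 0.203, and miR-21-5p was 0.128 with quantile normalization and -0.246 to 0.053 over the months left out. The value of miR-192 turned to -0.083 with the 75th percentile, -0.004 with the 90th percentile of detected miRNAs, -0.175 with the summed signal, -0.117 with quantile normalization, -0.735 without scaling, -0.002 with normexp and -0.017 with the series table, and ran from -0.072 to 0.427 over the months left out. Without 2 mo miR-486 turned to 0.022, within a range of -0.573 to 0.022 over the months left out. The lowest signals flagged as detected were 3.28 to 4.10, against 6.21 to 22.9 for the 5 dim miRNAs called higher, and no array was repeated. A signal in the latter range could still be flagged as not detected. An example is the 8.21 of miR-489 at 2 mo on the array labelled grazing, with a scanner error of 2.21.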
